A study of Homo sapiens with 6 samples.

Results

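Aminoacyl-tRNA synthetases are the enzymes that join each amino acid to its transfer RNA, and their genes were followed here in HCT116, an established human line from a colorectal carcinoma. The genes were chosen by symbol, as 20 genes whose products act in the cytosol and 16 whose products act in mitochondria. These 36 genes stood among 60675 rows of the deposited count table, and all 36 passed the filter on low counts that left 16503 genes for testing. RNA was sequenced from 6 libraries in 3 groups of 2. The SP2509 group was exposed for 48 h to SP2509 at 3 uM, a compound that inhibits LSD1, an enzyme that removes methyl groups from histones. The siPIR group carried a knockdown of PIR by small interfering RNA, of a duration not stated, and its treatment label also names SP2509, so whether these cells had received the compound is not settled by the labels. The untreated group is labelled as wild type, and the labels do not say whether it was given DMSO. No library is labelled as carrying a control siRNA, so effects of transfection and of the loss of PIR cannot be told apart.

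Protein synthesis in human cells runs on separate sets of charged transfer RNAs, in the cytosol and inside mitochondria. Most amino acids therefore have a synthetase gene for each compartment, both encoded in the nucleus. GARS and KARS, the glycyl and lysyl enzymes, are known to serve both compartments from a single gene. Several cytosolic enzymes are held in the multisynthetase complex, which is built on the scaffold proteins AIMP1, AIMP2 and EEF1E1, while the others work outside it. Many cytosolic synthetase genes are known targets of ATF4, the transcription factor of the integrated stress response and of amino acid shortage. ATF4 pairs with C/EBP proteins on composite sites whose core reads TGATGNAA.

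That core was searched on both strands of the RefSeq promoter windows (GRCh38.p14, 250 bases before to 50 bases after an annotated start). Windows were matched for 30 of the 36 genes, and not for DARS, LARS, VARS, YARS, AARS2 and VARS2. The letters were found in 7 of 16 cytosolic genes (43.8%) and in 1 of 14 mitochondrial genes (7.14%), against 4.46% of all 27305 genes with a window and 3.62% of 35116 windows of the same length. Of these matches 7 stretches are shown because they set cytosolic genes side by side with the only mitochondrial match. Each is 38 bases long, 5′ to 3′ on the strand of the gene, with the matching letters in capitals.
AARS, chr16:70289671-70289708, minus strand: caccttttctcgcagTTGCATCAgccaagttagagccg
CARS, chr11:3057403-3057440, minus strand: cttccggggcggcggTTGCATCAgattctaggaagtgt
GARS, chr7:30594830-30594867, plus strand: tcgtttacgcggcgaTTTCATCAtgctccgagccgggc
MARS, chr12:57488049-57488086, plus strand: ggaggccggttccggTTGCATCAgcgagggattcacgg
NARS, chr18:57621800-57621837, minus strand: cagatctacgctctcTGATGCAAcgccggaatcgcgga
TARS, chr5:33440952-33440989, plus strand: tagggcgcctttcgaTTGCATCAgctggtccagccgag
YARS2, chr12:32756072-32756109, minus strand: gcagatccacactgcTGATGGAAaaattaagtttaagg
In AARS, CARS, MARS and TARS the window holds the same 8 letters, TTGCATCA, which read TGATGCAA on the other strand. A match is a run of letters and was not tested for binding.

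HARS and HARS2, the cytosolic and mitochondrial histidyl enzymes, lie head to head on chromosome 5. Their promoter windows share 184 bases, shown in capitals within the HARS2 window because values of both genes are given beside it.
HARS2, chr5:140691205-140691504, plus strand: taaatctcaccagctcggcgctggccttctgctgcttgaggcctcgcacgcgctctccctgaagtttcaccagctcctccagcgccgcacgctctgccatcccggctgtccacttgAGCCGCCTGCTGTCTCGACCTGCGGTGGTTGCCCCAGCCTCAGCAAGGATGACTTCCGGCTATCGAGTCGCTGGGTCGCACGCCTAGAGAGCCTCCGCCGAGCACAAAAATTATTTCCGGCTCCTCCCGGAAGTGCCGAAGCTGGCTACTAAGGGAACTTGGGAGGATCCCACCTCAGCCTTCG
The core was not found in this window or in that of HARS. In SP2509 cells HARS2 fell by 0.36 on the log2 scale (edgeR adjusted p = 0.00729), while HARS was at a log2 fold change of -0.04 (edgeR adjusted p = 0.756). Exons of the pair overlap on opposite strands over 437 bases, so reads there may have been divided between them.

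Libraries held between 22622121 and 28816285 counts. PIR, the knockdown target, was at 1.93 and 2.03 CPM in siPIR libraries and 14.8 and 11.8 CPM in SP2509 libraries, against 14.4 and 14.6 CPM in untreated libraries. CPM are counts scaled to library size, here after TMM normalisation. The epithelial markers EPCAM, KRT8, KRT18, KRT19 and CDH1 were present in every library, while VIL1 had at most 14 counts. PTPRC, CD3E, CDH5 and COL1A2, markers of leukocytes, endothelium and fibroblasts, had 0 counts in all 6 libraries, which allows up to 3 counts each. The other markers of those types (CD14, PECAM1, VWF, DCN and LUM) had at most 53 counts in a library, and COL1A1 had 22 to 794. The siPIR libraries stand apart: their count-weighted GC content was 42.3% and 42.8%, against 48.3% to 48.7% in the other 4.

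In untreated cells the cytosolic genes were the more abundant set. Their median level was 30.7 CPM per kilobase of exon, against 5.0 for the mitochondrial genes. The cytosolic genes ran from 5.7 (CARS) to 43.3 (QARS) CPM per kilobase and the mitochondrial genes from 1.08 (FARS2) to 43.1 (IARS2). IARS2, the mitochondrial isoleucyl enzyme, took 33.1% and 33.5% of the summed CPM of mitochondrial synthetase genes in the untreated libraries.

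**Figure D1:**
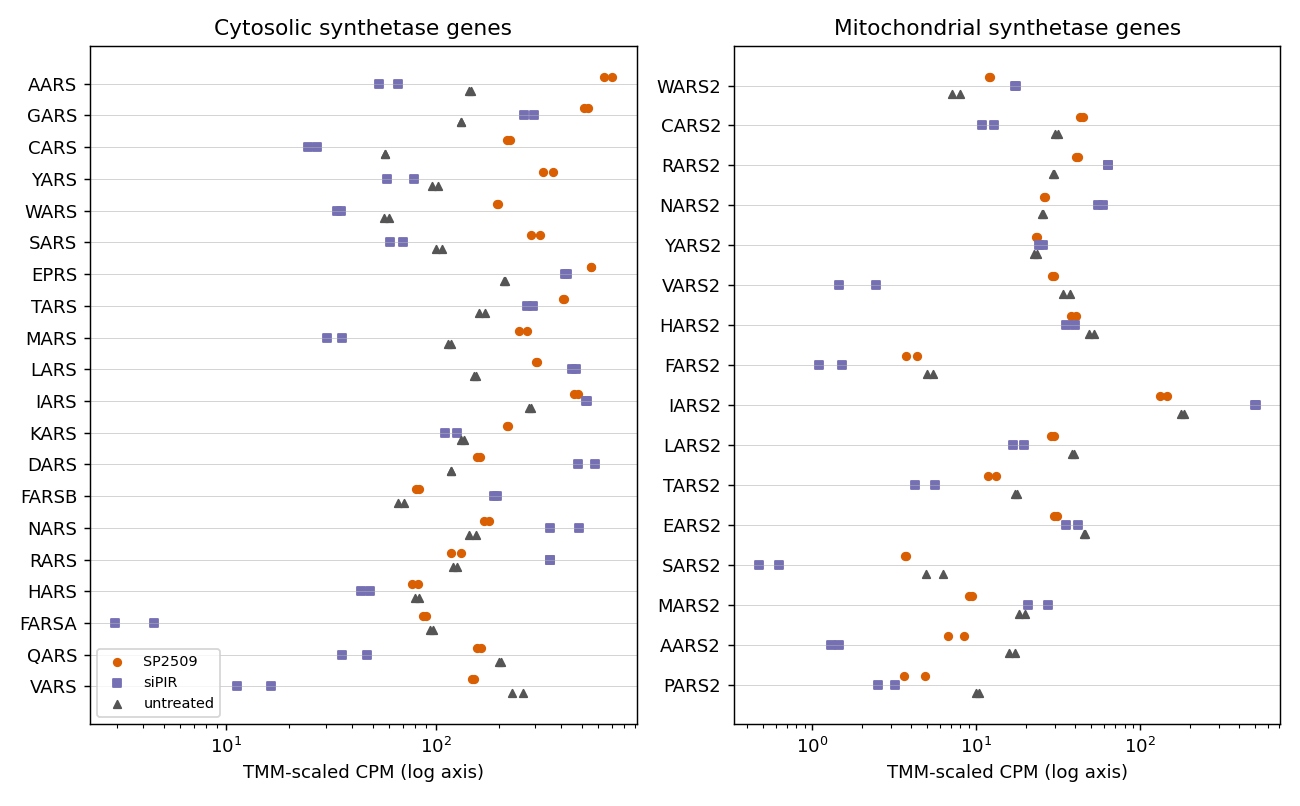
Level of each synthetase gene in each of the 6 libraries, in TMM-scaled CPM on a log axis, with cytosolic genes on the left and mitochondrial genes on the right, ordered by their change in SP2509 cells. For AARS the SP2509 points lie at 637 and 697 CPM, right of both untreated points, while for PARS2 they lie left of them.

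The first comparison asks what SP2509 changes in HCT116 cells. More cytosolic synthetase genes rose than fell, and more mitochondrial ones fell than rose. Of 20 cytosolic genes 14 rose and 2 fell past an adjusted p of 0.05, against a background of 33.5% of all 16503 genes tested that rose and 35.1% that fell (68.6% in either direction). Of 16 mitochondrial genes 3 rose and 9 fell. The count of 9 was 8 with DESeq2, 11 when only the SP2509 and untreated libraries were fitted, and 13 with total counts. It was smaller with any SP2509 or untreated library left out, which leaves a single library in a group. Cytosolic genes had a median log2 fold change of 0.86 and mitochondrial genes of -0.37, beside -0.04 over all genes tested. Of the cytosolic genes 9 rose by more than 2-fold, and of the mitochondrial genes 3 fell by more than 2-fold. With an offset for GC content and transcript length, described below, these counts were 9 and 1. The share of all genes that passed 2-fold was not computed. The background depends on scaling: over all genes 5521 rose and 5795 fell as fitted, against 3363 and 8527 with libraries scaled by total counts alone.

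AARS, the alanyl enzyme (ENSG00000090861, chromosome 16, 70252295 to 70289543, minus strand, GRCh38), rose the most. It was at 637 and 697 CPM in SP2509 libraries, against 147 and 145 CPM in untreated libraries. Its log2 fold change was 2.19 (SE 0.115, edgeR adjusted p = 1.11e-08). Its share of all cytosolic synthetase CPM was 11.8% and 12.4% in SP2509 libraries, against 5.33% and 5.27% in untreated libraries. GARS, the glycyl enzyme of both compartments (ENSG00000106105, chromosome 7, 30594681 to 30634033), had 511 and 533 CPM in SP2509 libraries, against 132 and 133 CPM in untreated libraries. It rose by 1.98 on the log2 scale (SE 0.1, edgeR adjusted p = 8.07e-09), and the gap between the groups was far wider than that between the libraries of either. CARS, the cysteinyl enzyme (ENSG00000110619, chromosome 11, 3000922 to 3057613), was at 219 and 227 CPM in SP2509 libraries and 57.2 and 57.2 CPM in untreated libraries (log2 fold change 1.96, SE 0.0977, edgeR adjusted p = 6.88e-09).

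WARS, the tryptophanyl enzyme and a known interferon-gamma target (ENSG00000140105, chromosome 14, 100333788 to 100376805), was at 198 and 199.7 CPM in SP2509 libraries and 60.02 and 56.6 CPM in untreated libraries. Its log2 fold change was 1.77 (SE 0.0957, edgeR adjusted p = 1.31e-08), with no overlap between the groups. SARS, the seryl enzyme (ENSG00000031698, chromosome 1, 109213918 to 109238169), had 285 and 315 CPM in SP2509 libraries, against 101 and 107 CPM in untreated libraries. It rose by 1.53 (SE 0.107, edgeR adjusted p = 1.05e-07). EPRS, the bifunctional enzyme that charges glutamate and proline (ENSG00000136628, chromosome 1, 219968601 to 220046658), was at 556 and 553 CPM in SP2509 libraries and 212 and 216 CPM in untreated libraries. It rose by 1.37 (SE 0.0937, edgeR adjusted p = 8.43e-08). Both of its SP2509 libraries stood more than 2-fold above both untreated ones. The tyrosyl gene YARS rose by 1.80, the threonyl gene TARS by 1.29 and the methionyl gene MARS by 1.17.

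The remaining rises were smaller. The leucyl gene LARS rose by 0.98, the isoleucyl gene IARS by 0.73, the aspartyl gene DARS by 0.44 and FARSB, the beta subunit of the phenylalanyl enzyme, by 0.26. KARS, the lysyl enzyme of both compartments, was at 220.4 and 222 CPM in SP2509 libraries and 137 and 132 CPM in untreated libraries, and rose by 0.72 (SE 0.1, edgeR adjusted p = 3.75e-05). VARS, the valyl enzyme, went the other way, with 149 and 153 CPM in SP2509 libraries and 261 and 232 CPM in untreated libraries (log2 fold change -0.71, SE 0.129, edgeR adjusted p = 0.000336). QARS, the glutaminyl enzyme, fell by 0.33 (edgeR adjusted p = 0.0231). The asparaginyl gene NARS (0.22), the arginyl gene RARS (0.02), HARS (-0.04) and FARSA (-0.12), the alpha subunit of the phenylalanyl enzyme, did not pass the test, with edgeR adjusted p-values from 0.166 to 0.851. The calls of QARS and FARSB rest on all 4 libraries. Without SP2509 replicate 1 or 2 or untreated replicate 1 or 2, the edgeR adjusted p was 0.165, 0.0902, 0.101 and 0.118 for QARS and 0.136, 0.0679, 0.0791 and 0.212 for FARSB. With total counts DARS was no longer called (0.05, edgeR adjusted p = 0.683) and FARSB turned to -0.13.

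**Figure D2:**
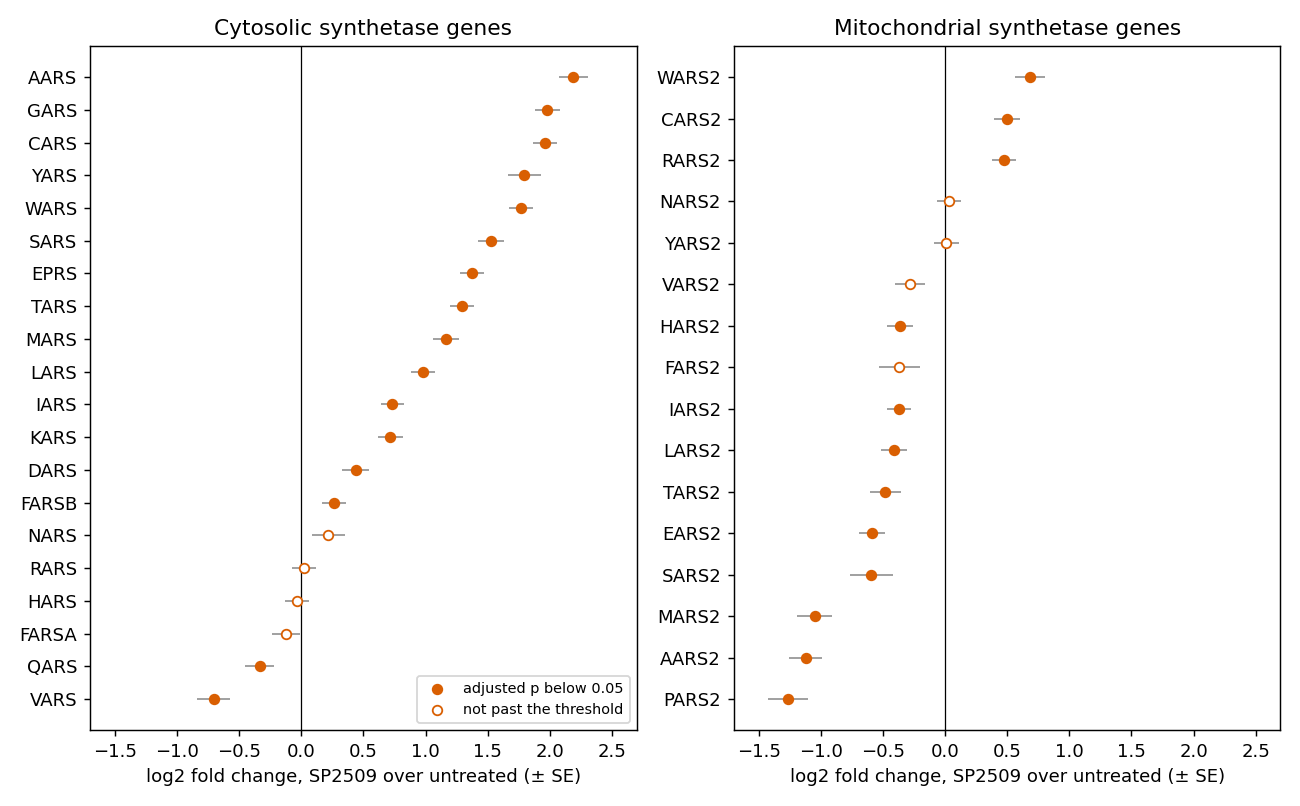
Log2 fold change of SP2509 over untreated for each gene, with bars of 1 SE from the edgeR fit of 2 libraries a group and open circles for genes that did not pass an adjusted p of 0.05. Cytosolic genes run from -0.71 (VARS) to 2.19 (AARS) and mitochondrial genes from -1.26 (PARS2) to 0.68 (WARS2).

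Among the 8 cytosolic genes of the multisynthetase complex 6 rose and 1 fell, with a median of 0.73 (log2 fold change) and a range from -0.33 (QARS) to 1.37 (EPRS). Among the 12 genes outside the complex 8 rose and 1 fell, with a median of 1.41 and a range from -0.71 (VARS) to 2.19 (AARS). The complex genes made up 41.5% and 40.6% of cytosolic synthetase CPM in SP2509 libraries, against 48.7% and 49.1% in untreated libraries. By the catalytic folds known as class I and class II, 6 of 9 and 7 of 10 cytosolic genes rose, so rises were found in both. EPRS, which holds a domain of each, was left out of that count. Over all genes tested 33.5% rose and 35.1% fell, and differences between these sets of synthetase genes were not tested. Of the 7 cytosolic genes with the TGATGNAA letters in a promoter window 6 rose (AARS, CARS, GARS, MARS and TARS among them, median of the 7 log2 fold changes 1.29), and NARS did not pass. Of the 9 with a window and no match 5 rose and 1 fell (median 0.26), and EPRS, SARS and WARS are among those that rose. DARS, LARS, VARS and YARS, which have no window, are in neither count, and all of them but VARS rose. YARS2, the mitochondrial gene with a match, was at a log2 fold change of 0.01.

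The 3 largest falls among mitochondrial genes were those of the prolyl, alanyl and methionyl enzymes. PARS2 (ENSG00000162396, chromosome 1, 54756898 to 54764514) was at 3.61 and 4.85 CPM in SP2509 libraries and 10.0 and 10.3 CPM in untreated libraries (log2 fold change -1.26, SE 0.159, edgeR adjusted p = 1.52e-05). AARS2 (ENSG00000124608, chromosome 6, 44299654 to 44313326) had 6.72 and 8.42 CPM in SP2509 libraries, against 17.1 and 15.8 CPM in untreated libraries, and fell by 1.12 (SE 0.133, edgeR adjusted p = 8.78e-06). MARS2 (ENSG00000247626, chromosome 2, 197705369 to 197708387) had 9.0 and 9.35 CPM in SP2509 libraries, against 18.2 and 19.8 CPM in untreated libraries, and fell by 1.05 (SE 0.141, edgeR adjusted p = 2.66e-05). In all of these both SP2509 libraries lay below both untreated ones. With the offset for GC content and length PARS2 was at -1.13, AARS2 at -0.93 and MARS2 at -0.98.

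Smaller falls were found for SARS2 (-0.59), EARS2 (-0.59), TARS2 (-0.48), LARS2 (-0.41), IARS2 (-0.37) and HARS2 (-0.36), the mitochondrial seryl, glutamyl, threonyl, leucyl, isoleucyl and histidyl enzymes. FARS2 (-0.37) and VARS2 (-0.28) missed the threshold with edgeR adjusted p-values of 0.0627 and 0.0538. Both passed it when only the SP2509 and untreated libraries were fitted. NARS2 (0.03) and YARS2 (0.01) missed it as well, with edgeR adjusted p-values of 0.794 and 0.926. WARS2, the tryptophanyl enzyme, rose: it was at 11.9 and 12.1 CPM in SP2509 libraries and 7.05 and 7.97 CPM in untreated libraries (log2 fold change 0.68, SE 0.12, edgeR adjusted p = 0.000241). CARS2 rose by 0.50 and RARS2 by 0.47. With total counts WARS2, CARS2 and RARS2 were at 0.29, 0.11 and 0.08 and were not called (edgeR adjusted p = 0.0507, 0.399 and 0.481). Of the smaller falls only that of EARS2 kept its call whichever library was left out. Each such fit leaves a single library in a group. With a library left out EARS2 ran from -0.60 to -0.55 and SARS2 from -0.76 to -0.39. With the offset SARS2 was at -0.36 and was not called (edgeR adjusted p = 0.0595). By edgeR's adjusted p, TARS2 lost its call without SP2509 replicate 1 (0.0692), and LARS2 without SP2509 replicate 1 (0.057) or untreated replicate 1 (0.0538). IARS2 lost it without SP2509 replicate 2 (0.106) or untreated replicate 2 (0.0612), HARS2 likewise (0.106 and 0.0917), and SARS2 without SP2509 replicate 1 (0.05) or untreated replicate 1 (0.156). Mitochondrial ribosomal RNA took 6.33% and 6.93% of counts in SP2509 libraries, against 1.63% and 1.6% in untreated libraries, and its part in these values was not tested.

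Summed over the 20 genes, cytosolic synthetase RNA came to 5399 and 5601 CPM in SP2509 libraries, against 2762 and 2749 CPM in untreated libraries. The 16 mitochondrial genes came to 459 and 448 CPM in SP2509 libraries, against 531 and 548 CPM in untreated libraries. The ratio of the sums, which does not depend on how libraries are scaled, was 11.7 and 12.5 in SP2509 libraries and 5.2 and 5.02 in untreated libraries. With 2 libraries a group the smallest two-sided p that an exact permutation test can give is 0.333, which was its value here.

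**Figure D3:**
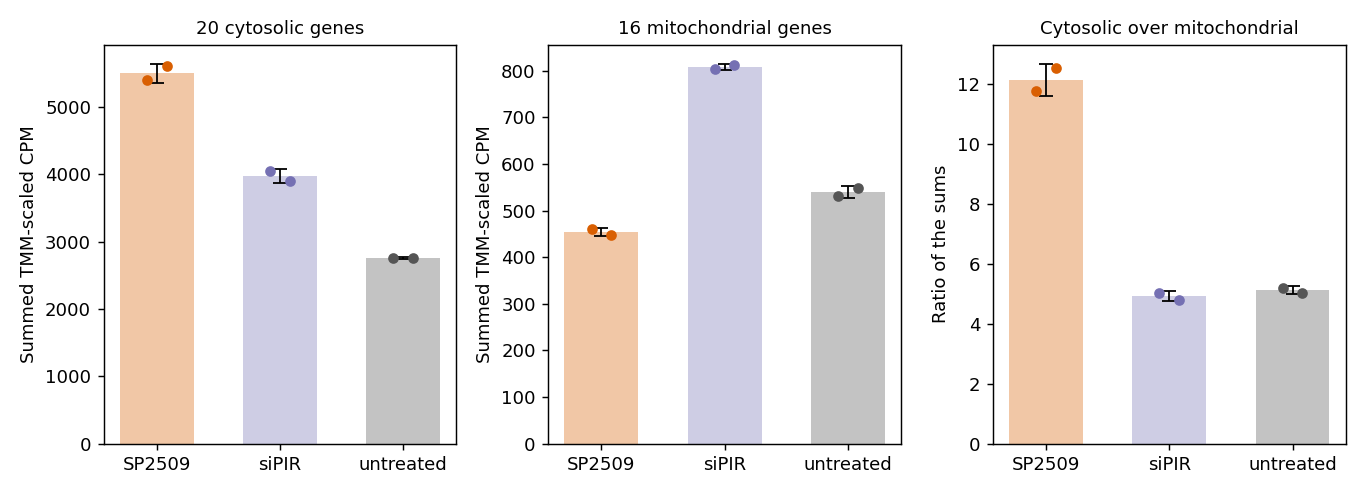
Summed TMM-scaled CPM of the 20 cytosolic genes, of the 16 mitochondrial genes, and the ratio of the sums, with points for libraries, bars for group means and error bars of 1 SD (n = 2). The SP2509 ratios of 11.7 and 12.5 stand above the siPIR ratios of 5.03 and 4.8 and the untreated ratios of 5.2 and 5.02.

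The same contrast was seen between partners that charge the same amino acid. In 15 of 17 pairs of a cytosolic gene and its mitochondrial partner, the count ratio was higher in both SP2509 libraries than in both untreated ones, by a median log2 difference of 1.39. AARS had 94.8 and 82.8 counts per count of AARS2 in SP2509 libraries, against 8.61 and 9.17 in untreated libraries. MARS had 27.8 and 29.2 counts per count of MARS2 in SP2509 libraries, against 6.32 and 5.96 in untreated libraries. EPRS stood at 154 and 114 counts per count of PARS2 in SP2509 libraries, against 21.2 and 20.9 in untreated libraries. The exceptions were RARS over RARS2, at 3.17 and 2.94 in SP2509 libraries and 4.13 and 4.24 in untreated libraries, and VARS over VARS2, at 5.04 and 5.31 in SP2509 libraries and 7.75 and 6.22 in untreated libraries. EPRS and FARS2 each enter 2 pairs, so the pairs are not independent. The ratios use the same counts as the class results above, and the share among other pairs of genes was not computed. For FARSA over FARS2 and NARS over NARS2, both higher in SP2509, neither gene was called on its own.

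**Figure D4:**
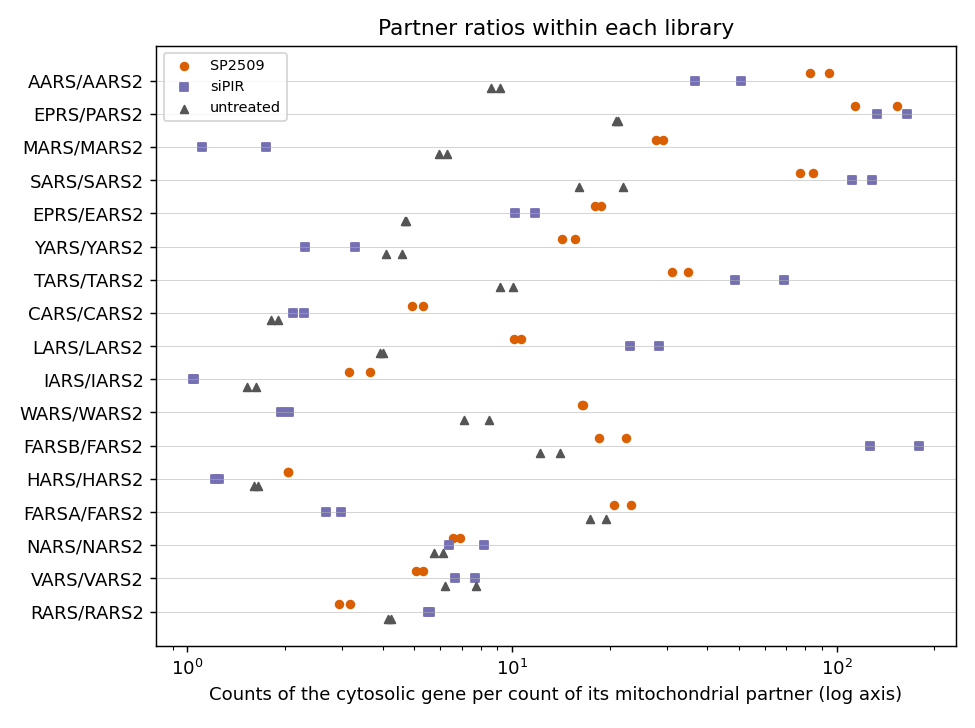
Counts of each cytosolic gene per count of its mitochondrial partner within each library, on a log axis, ordered by the difference between SP2509 and untreated libraries. The AARS/AARS2 ratio at the top stands at 94.8 and 82.8 in SP2509 libraries, against 8.61 and 9.17 in untreated libraries, and RARS/RARS2 at the bottom lies lower in SP2509.

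Reads of neighbouring genes may bear on some of these values, since exons of 20 of the 36 genes overlap those of another annotated gene. MARS shares 355 exon bases on the opposite strand with DDIT3, a stress response transcription factor gene with 3456 and 4227 counts in SP2509 libraries, against 127 and 98 in untreated libraries. The library kit is directional, but the sources used here do not give the strand setting of the counting, so a contribution of DDIT3 reads to MARS was not tested. The largest overlaps on the same strand were 46.2% of SARS2 exon length and 22.0% of VARS2 exon length. In both cases the other gene had at most 18 counts in a library.

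A list of 20 further genes of transfer RNA charging and delivery had 6 higher and 8 lower in SP2509 cells, near the shares of 33.5% and 35.1% over all genes tested, and a median log2 fold change of -0.05. XPOT, the exportin that carries transfer RNA out of the nucleus, was at 591 and 620 CPM in SP2509 libraries and 131 and 141 CPM in untreated libraries, a rise of 2.15 (SE 0.102, edgeR adjusted p = 4.69e-09). PSTK, a kinase of selenocysteine synthesis on transfer RNA, rose by 1.65, while SEPSECS, which acts after it, fell by 1.09. EEF1A1, the factor that brings charged transfer RNA to the cytosolic ribosome, rose by 1.02 and its mitochondrial counterpart TUFM fell by 0.65. Of the complex scaffolds AIMP1 rose by 0.82, and EEF1E1 (0.19) and AIMP2 (-0.13) did not pass.

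MTFMT, which formylates the initiator methionyl transfer RNA of mitochondria, changed by -1.36. GATB and GATC, subunits of the amidotransferase that makes mitochondrial glutaminyl transfer RNA, changed by -1.34 and -0.38, whereas QRSL1, its catalytic subunit, rose by 0.87. TRNT1, which adds the CCA end, changed by -1.08. DTD1 (0.60) rose and DTD2 (-0.62) fell, both genes of deacylases, which remove amino acids from transfer RNA. TARSL2, ELAC2, AARSD1 and EEF1A2 did not pass the test, at log2 fold changes of 0.03, -0.24, 0.03 and 0.11.

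The second comparison sets siPIR against untreated cells. Synthetase genes changed in both directions and in order of the GC content of their transcripts. Of the cytosolic genes 9 were higher and 10 lower past the threshold, and of the mitochondrial genes 5 were higher and 10 lower, against 39.3% of all genes tested that were higher and 46.9% that were lower (86.1% in either direction). Median log2 fold changes were -0.36 over cytosolic and -0.76 over mitochondrial genes, beside -0.28 over all genes. Across the 36 genes the fold change followed GC content with a Spearman rho of -0.934, against -0.317 for SP2509 and untreated cells. These are descriptions over genes that share the same libraries. All 12 genes with a GC content under 45% were higher, by 0.76 to 2.16, and all 13 with 52% or more were lower, by -0.53 to -4.69. Those bounds were set after the values were seen. Over all genes tested the median log2 fold change was 1.08 at 40 to 45% GC, 0.06 at 45 to 50%, -1.18 at 50 to 55% and -4.11 at 60 to 65%. How much of any siPIR value below comes with this trend was not tested gene by gene, and fold changes of named genes are therefore given also with an offset that removes the trend on GC content and transcript length from every library. Levels, sums and shares are given without it.

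FARSA had the largest fall. It was at 2.93 and 4.48 CPM in siPIR libraries and 97.6 and 94.4 CPM in untreated libraries (log2 fold change -4.69, SE 0.154, edgeR adjusted p = 2.43e-11), at a GC content of 60.3%, and at -1.46 with the offset. FARSB, the other subunit of the same enzyme, was at 197 and 191 CPM in siPIR libraries and 70.4 and 66.4 CPM in untreated libraries, a rise of 1.5 at a GC content of 41.6%, and of 0.38 with the offset. The subunits of the phenylalanyl enzyme thus lay on opposite sides of 0 in both fits. VARS was at 11.3 and 16.3 CPM in siPIR libraries and 261 and 232 CPM in untreated libraries (log2 fold change -4.16, SE 0.154, edgeR adjusted p = 5.3e-11; -0.41 with the offset). QARS was at 35.7 and 47.1 CPM in siPIR libraries, against 201 and 206 CPM in untreated libraries (-2.30, SE 0.127, edgeR adjusted p = 1.31e-09; -0.45 with the offset). MARS was at 30.2 and 35.8 CPM in siPIR libraries and 115 and 118 CPM in untreated libraries (-1.82, SE 0.112, edgeR adjusted p = 3.76e-09; -0.35 with the offset).

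DARS, the aspartyl enzyme, had the largest rise. It was at 576 and 481 CPM in siPIR libraries and 118 and 119 CPM in untreated libraries (log2 fold change 2.16, SE 0.11, edgeR adjusted p = 6.2e-10; 0.97 with the offset). LARS was at 470.0 and 451 CPM in siPIR libraries and 155 and 152 CPM in untreated libraries (1.58, SE 0.0946, edgeR adjusted p = 2.8e-09; 0.40 with the offset). GARS was at 266 and 295 CPM in siPIR libraries and 132 and 133 CPM in untreated libraries, a rise of 1.08 (SE 0.0984, edgeR adjusted p = 2.08e-07) that was 1.35 with the offset. Its GC content of 48.6% lies where the median of all genes was 0.06. KARS was at 110.4 and 127 CPM in siPIR libraries and 137 and 132 CPM in untreated libraries, and did not pass (-0.18, edgeR adjusted p = 0.107). It did without siPIR replicate 2 (-0.26, edgeR adjusted p = 0.00529) and with the offset (-0.30, edgeR adjusted p = 0.00145).

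Among mitochondrial genes VARS2 was at 1.46 and 2.45 CPM in siPIR libraries and 33.7 and 37.3 CPM in untreated libraries (log2 fold change -4.18, SE 0.175, edgeR adjusted p = 1.28e-10; -1.29 with the offset). AARS2 was at 1.46 and 1.3 CPM in siPIR libraries and 17.1 and 15.8 CPM in untreated libraries (-3.57, SE 0.186, edgeR adjusted p = 7.42e-10; -0.60 with the offset). SARS2 had only 9 and 12 counts in siPIR libraries, against 226 and 155 in untreated libraries, and its change of -3.34 became 0.11 with the offset (edgeR adjusted p = 0.784). IARS2 rose, with 502 and 504 CPM in siPIR libraries and 176 and 183 CPM in untreated libraries (1.49, SE 0.0983, edgeR adjusted p = 7.56e-09; 0.80 with the offset). It then made up 62.5% and 62.0% of mitochondrial synthetase CPM in siPIR libraries, against 33.1% and 33.5% in untreated libraries. Without IARS2 the other 15 genes summed to 301 and 309 CPM in siPIR libraries, against 355 and 365 CPM in untreated libraries. The small changes of EARS2 (-0.25, and 0.64 with the offset) and MARS2 (0.33, with 0.57 under the offset and -0.29 with total counts) were called narrowly without the offset (edgeR adjusted p = 0.0421 and 0.0323). Their calls were lost with several libraries left out in turn, among them SP2509 libraries, which are not part of this comparison. EARS2 was not called without siPIR replicate 1, SP2509 replicate 1 or 2, or untreated replicate 1 or 2 (edgeR adjusted p = 0.245, 0.0714, 0.096, 0.133 and 0.125). MARS2 was not called without siPIR replicate 1, SP2509 replicate 1, or untreated replicate 1 or 2 (0.314, 0.057, 0.202 and 0.0832).

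With the offset 9 cytosolic genes were higher and 7 lower, and 6 mitochondrial genes were higher and 4 lower, against 32.7% and 32.4% of all genes tested. The class medians were then 0.12 and 0.11, beside -0.04 over all genes. In both fits 9 genes were higher (DARS, FARSB, GARS, LARS, NARS, RARS, IARS2, MARS2 and NARS2) and 10 were lower (CARS, FARSA, HARS, MARS, QARS, VARS, AARS2, FARS2, LARS2 and VARS2). The share of all genes called in the same direction in both fits was not computed. YARS turned, with 58.5 and 79.2 CPM in siPIR libraries and 103 and 95.9 CPM in untreated libraries. Its fold change was -0.53 as fitted and 1.47 with the offset, the largest rise in that fit. AARS was at -1.29 as fitted (53.7 and 66.0 CPM in siPIR libraries, against 147 and 145 CPM in untreated libraries) and at 0.08 with the offset (edgeR adjusted p = 0.357).

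**Figure D5:**
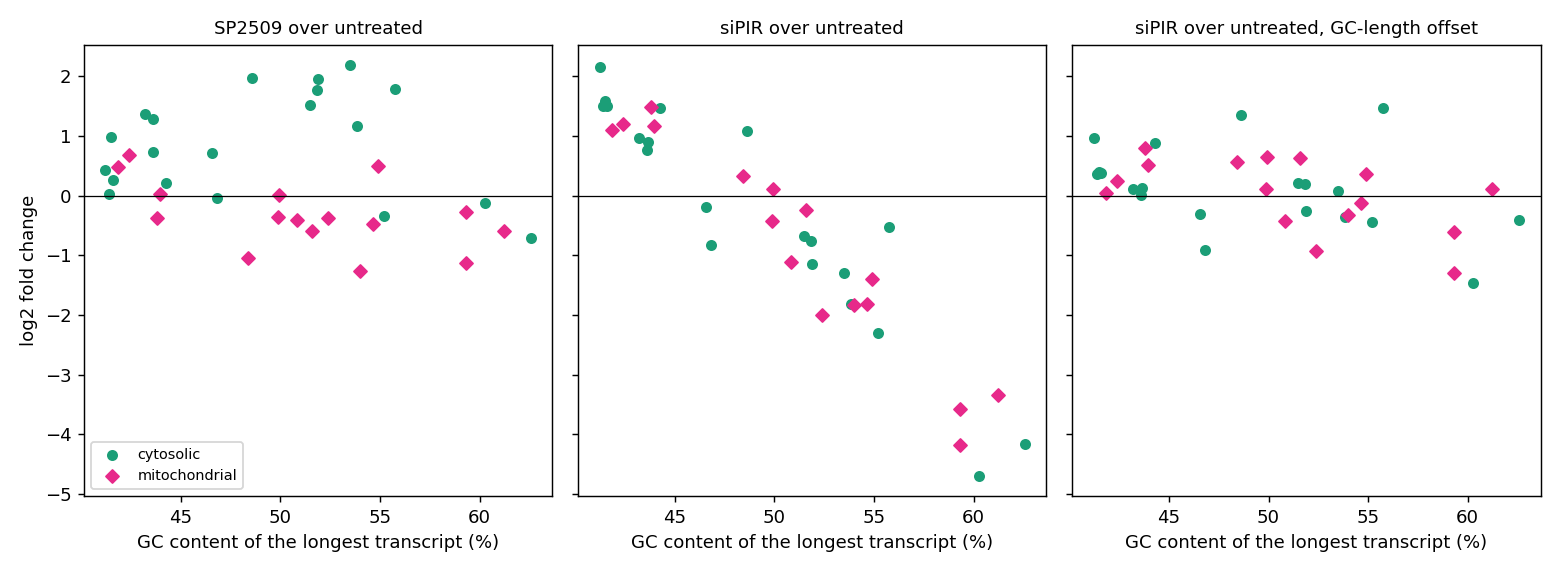
Log2 fold change of each synthetase gene against the GC content of its longest transcript, for SP2509 over untreated, siPIR over untreated, and siPIR over untreated with the GC-length offset. The siPIR fold changes descend from 2.16 (DARS, 41.2% GC) to -4.69 (FARSA, 60.3% GC) and spread from -1.46 to 1.47 with the offset.

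The summed cytosolic RNA was 4042 and 3898 CPM in siPIR libraries, against 2762 and 2749 CPM in untreated libraries, and the mitochondrial sum 803 and 813 CPM in siPIR libraries, against 531 and 548 CPM in untreated libraries. Their ratio was 5.03 and 4.8 in siPIR libraries and 5.2 and 5.02 in untreated libraries, so the groups overlapped. The sums, unlike the ratio, depend on scaling. TMM factors, by which counts are divided, were 0.80 and 0.85 in siPIR libraries, against 1.26 and 1.27 in untreated libraries. With total counts alone the median log2 fold changes were -0.97 over cytosolic and -1.38 over mitochondrial genes. A rise of summed synthetase RNA is thus not shown apart from this scaling. Genes of the multisynthetase complex made up 62.2% and 62.6% of cytosolic CPM in siPIR libraries, against 48.7% and 49.1% in untreated libraries. Their median GC content was 43.4%, against 51.6% for the other cytosolic genes. Of the 20 further genes of transfer RNA charging and delivery 9 were higher and 6 lower in siPIR cells, against 39.3% and 46.9% of all genes tested. XPOT was higher at 457 and 422 CPM in siPIR libraries, against 131 and 141 CPM in untreated libraries (log2 fold change 1.69, edgeR adjusted p = 2.71e-09; 0.34 with the offset). AIMP1 (2.07, with 0.18 under the offset) and EEF1E1 (2.30, with 0.46) rose. AIMP2 (-1.76, with -0.88 under the offset), TUFM (-3.42, with -0.90) and EEF1A2 (-5.03, with -0.77) fell.

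The responses to SP2509 and siPIR share the untreated libraries, so their difference was tested directly between siPIR and SP2509 libraries. There 11 synthetase genes were higher and 22 lower in siPIR, against 38.8% and 45.5% of all genes tested (84.3% in either direction). With the offset 10 were higher and 20 lower, against 32.6% and 37.1% of all genes. FARSA (-4.57, with -1.56 under the offset), VARS2 (-3.90, with -1.18) and AARS (-3.48, with -2.22) were furthest below SP2509 in the fit without the offset. AARS had 53.7 and 66.0 CPM in siPIR libraries, against 637 and 697 CPM in SP2509 libraries. IARS2 (1.86, with 1.17 under the offset), DARS (1.72, with 0.53) and RARS (1.49, with 0.35) were furthest above in that fit. With the offset CARS (-2.28) and AARS were furthest below, and MARS2 (1.54), IARS2 and EARS2 (1.15) furthest above. RARS had 352 and 353 CPM in siPIR libraries, against 133 and 118 CPM in SP2509 libraries. In SP2509 libraries FARSA was at 87.0 and 89.6 CPM and VARS2 at 29.6 and 28.9 CPM. IARS2 was there at 146 and 132 CPM and DARS at 163 and 158 CPM. The next values are those of FARSA, VARS2, AARS, IARS2, DARS and RARS. All 6 had edgeR adjusted p-values of 9.37e-09 or lower without the offset. IARS did not differ past the threshold, with 527 and 523 CPM in siPIR libraries and 459 and 482 CPM in SP2509 libraries (0.16, edgeR adjusted p = 0.127), but was lower in siPIR with the offset (-0.58, edgeR adjusted p = 2.68e-07). HARS2 (-0.06) and YARS2 (0.10) were not called either, and both were higher in siPIR with the offset (0.38 and 0.57, edgeR adjusted p = 0.000491 and 1.87e-05).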

How the data were processed

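The authors deposited estimated counts per Ensembl gene for 6 libraries, many of them not whole numbers. Per the labels' protocols a directional kit was used on total RNA. Per the submitters' processing notes, which give no order, the tools were HISAT2, Trimmomatic 0.32, Subread 1.6.2 with featureCounts, FastQC 0.11.8 and edgeR 3.26.4, and the build was GRCh38. The sources used here give no annotation release, strand setting or origin of fractional values.

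Counts were rounded, filtered by filterByExpr, scaled by TMM (trimmed mean of M values) and fitted for all 6 libraries as 3 groups with edgeR 4.0.16 (R 4.3.3, robust quasi-likelihood test, Benjamini-Hochberg adjustment over 16503 genes, threshold 0.05). The fit was tested on simulated data with few genes changed, in SP2509 libraries only, and no GC trend. That does not test it for data with as many changes or such a trend as here. Groups come from sample titles. Nothing says that replicates came from separate cultures, so p-values measure only the spread between these libraries, which may be technical. Library names hold the numbers 11 and 12 in the untreated and SP2509 groups, and 10 and 11 in the siPIR group. The sources used here do not explain these numbers, which partly differ between groups. Of a count of 0, up to 3 counts are allowed, for counting error only. Exon length, GC content and coordinates are from GENCODE 29, which held 57055 of 60675 identifiers, and promoters are from RefSeq. The GC-length offset fits each library's deviation from the mean of all libraries with splines of 5 degrees of freedom on GC content and log2 length, and can also remove biological differences that follow them. Members, lists and alternatives (scaling, DESeq2 1.42.0, filter, libraries in the fit, blocks, offset, each library left out) were chosen with earlier results of these data known. All members are reported by name for SP2509 against untreated cells, and some only within counts for the siPIR comparisons. The values of a gene of the further list and a promoter stretch are not reported here. Those with every library's value are GARS, KARS and, in each comparison with untreated cells, the 6 cytosolic and 4 mitochondrial genes with the smallest adjusted p, with the 3 largest differences each way for siPIR against SP2509. Further such values were chosen after they were seen.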

Additional observations from a re-analysis of the deposited data

How the results depend on the processing

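In SP2509 against untreated cells the cytosolic median exceeded the mitochondrial median by 1.16 to 1.27 on the log2 scale under every setting tried. With total counts the median of all genes moved to -0.43 and with upper-quartile scaling to -0.27 (-0.04 with TMM), and the class medians moved with it, to 0.47 and -0.76 and to 0.62 and -0.60. Cytosolic genes higher numbered 12 to 15 in all settings. Cytosolic genes lower were 4 with upper-quartile scaling, 5 with total counts, and 1 to 2 with a library left out. Mitochondrial genes lower numbered 6 to 13 (8 with DESeq2 or the offset). Mitochondrial genes higher were 0 with total counts (edgeR), with 1 at an unadjusted p under 0.05, and 3 with DESeq2. In siPIR against untreated cells all genes split into 6479 higher and 7733 lower as fitted, and into 4796 and 9359 with total counts. There, mitochondrial genes lower were 4 with the offset, alone or with the replicate block. Reversed in SP2509 cells were FARSB with total counts (-0.13), NARS (-0.018 and -0.17 with upper-quartile scaling and total counts), RARS (-0.21 and -0.37), NARS2 (-0.20 and -0.36) and YARS2 (-0.22 and -0.38). FARSA became 0.098 and HARS 0.0029 with the offset, and 0.098 and 0.0036 with the offset and block. With a library left out HARS ran from -0.069 to 0.031, RARS from -0.050 to 0.125 and YARS2 from -0.0080 to 0.036. In siPIR the offset, alone and with the block, turned AARS (0.084 and 0.081), SARS (0.209 and 0.207), WARS (0.194 and 0.195), YARS (1.47 and 1.46), CARS2 (0.368 and 0.367), EARS2 (0.637 and 0.635), HARS2 (0.106 and 0.106) and SARS2 (0.114 and 0.131). MARS2 became -0.29 with total counts, and YARS2 -0.065 and -0.51 with upper-quartile scaling and total counts. The offset removes the GC trend by construction, and the cause of other changes was not tested. The replicate block changed no call of a synthetase gene against untreated cells (14 cytosolic genes higher in SP2509 cells). Deviations of libraries with the same replicate number in their titles correlated at -0.0385 to 0.0815, so these numbers were not treated as pairs. Correlations by the numbers in the library names, which match siPIR libraries to the others differently, were not computed. With a block for those numbers, 15 cytosolic genes were higher and 2 lower in SP2509 cells, and 3 mitochondrial genes were higher and 11 lower. SARS2, with 9 and 12 counts in siPIR libraries, is limited by depth.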
